A study of Arabidopsis thaliana and Arabidopsis thaliana x Arabidopsis arenosa with 9 samples.

Results

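The VIM (VARIANT IN METHYLATION) family of Arabidopsis thaliana is described here by the mRNA levels of its 6 genes in seed of reciprocal crosses between the accessions Col-0 and C24. The members were chosen by locus identifier: VIM1 (AT1G57820), VIM2 (AT1G66050), VIM3 (AT5G39550), VIM4 (AT1G66040), VIM5 (AT1G57800) and ORL1 (ORTH-LIKE 1, AT4G08590). All 6 were found among the 33602 loci of the count table and all 6 passed the minimum of 10 reads in at least 2 libraries, as did 16779 loci in all. Whole seeds were collected 3 days after pollination (DAP). The cross Col-0 X C24 had the male-sterile line ColA9 as seed parent and wild-type C24 as pollen donor, and C24 X Col-0 had the male-sterile line C24A9 as seed parent and wild-type Col-0 as pollen donor. Both seed parents were hemizygous for the male sterility construct, so this background was shared by the groups, and each cross was sampled in 2 replicates. The crosses differ in both parents at once, and therefore the genotype of the seed parent, that of the pollen donor and the direction of the cross cannot be told apart.

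VIM proteins bind methylated cytosine through an SRA domain. The sites they bind include CG sites methylated on one strand only, as they are left by DNA replication. A PHD finger and RING domains, the latter typical of ubiquitin ligases, complete the protein, and UHRF1 is the mammalian relative. VIM1, VIM2 and VIM3 act redundantly with the CG methyltransferase MET1 in keeping CG methylation through cell division, and ORL1 is a shorter relative without the PHD finger. VIM5 is known as a paternally expressed imprinted gene of the endosperm, the nutritive tissue of the seed that receives maternal and paternal genomes. The counts used here do not separate the alleles, so they give the total counted level of each gene in seed and not the parent it came from. Reads were aligned to TAIR10 cDNA, from which the paper found C24 transcripts to differ at many bases. Reads of a paternally expressed gene come mainly from C24 in Col-0 X C24 and from Col-0 in the reciprocal cross. Whether reads of C24 alleles were lost in alignment was not tested for any member. In bulk seed, fewer cells that express a gene and less RNA per cell cannot be told apart.

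The members were compared first as sequences, because near-identical genes can exchange reads in counting. VIM5 and VIM1 are neighbours on the minus strand of chromosome 1 of TAIR10.1, VIM5 at chr1:21408623-21412283 with 9 exons and VIM1 at chr1:21413981-21418115 with 10 exons, with 1697 bases and the pseudogene AT1G57810 between them. VIM4, at chr1:24583740-24586760 on the minus strand, and VIM2, at chr1:24589343-24592780 on the plus strand, lie 2582 bases apart with their starts towards each other, and each has 9 exons. VIM3 lies alone at chr5:15837178-15840678 on the minus strand with 9 exons. ORL1 lies at chr4:5463794-5466747 on the minus strand with 6 exons, and its last 114 bases overlap the gene AT4G08580 on the other strand. The coding sequences were 1938 bases in VIM1, 1872 in VIM2, 1854 in VIM3, 1869 in VIM4, 1995 in VIM5 and 1398 in ORL1. VIM2 and VIM4 were identical at 99.5% of aligned coding bases, with 9 substitutions, and each was 95.9% identical to VIM3. VIM1 and VIM5 were 83.4% identical, and VIM5 shared 73.3% with VIM2, 74.6% with VIM3, 73.6% with VIM4 and 75.8% with ORL1.

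A stretch of 80 coding bases is identical in VIM2, VIM3 and VIM4 and lies in exon 2 of each member. It shows a place where a read of 80 bases cannot be assigned among 3 of the members but can be assigned to VIM1, VIM5 or ORL1. Sequences are those of TAIR10.1 from RefSeq, written 5′ to 3′ along the gene, and capitals mark bases that differ from VIM2.
VIM2 (chr1:24590947-24591026, plus strand): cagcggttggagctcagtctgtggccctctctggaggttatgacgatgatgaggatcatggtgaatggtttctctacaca
VIM3 (chr5:15838972-15839051, minus strand): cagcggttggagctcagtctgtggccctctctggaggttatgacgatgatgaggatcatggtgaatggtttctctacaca
VIM4 (chr1:24585407-24585486, minus strand): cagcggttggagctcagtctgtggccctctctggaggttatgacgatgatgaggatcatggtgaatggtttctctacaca
VIM1 (chr1:21416379-21416458, minus strand): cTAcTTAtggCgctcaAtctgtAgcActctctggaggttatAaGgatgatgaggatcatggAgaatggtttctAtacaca
VIM5 (chr1:21410355-21410434, minus strand): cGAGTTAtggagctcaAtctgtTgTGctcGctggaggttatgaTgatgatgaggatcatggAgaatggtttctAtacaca
ORL1 (chr4:5465160-5465239, minus strand): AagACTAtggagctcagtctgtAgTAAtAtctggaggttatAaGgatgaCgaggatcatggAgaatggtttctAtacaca

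VIM1 differed from VIM2 at 13 of these bases, VIM5 at 14 and ORL1 at 15. The first 80 coding bases, in exon 1, are shown because VIM2 and VIM4 differed in them at 2 bases, and no stretch of this length without gaps and within an exon held more. VIM3 differed from VIM2 at 4. Capitals again mark bases that differ from VIM2.
VIM2 (chr1:24589534-24589613, plus strand): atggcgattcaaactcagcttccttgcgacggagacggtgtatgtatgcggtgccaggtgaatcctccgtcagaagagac
VIM4 (chr1:24586602-24586681, minus strand): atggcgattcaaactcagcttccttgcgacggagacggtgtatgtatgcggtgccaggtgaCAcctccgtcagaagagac
VIM3 (chr5:15840424-15840503, minus strand): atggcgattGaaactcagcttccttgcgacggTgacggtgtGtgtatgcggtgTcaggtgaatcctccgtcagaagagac

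VIM5 and VIM1, the neighbouring pair, are shown at their closest and their most distant stretch of 80 coding bases without gaps and within an exon, in exon 2 and exon 1. Capitals in VIM5 mark bases that differ from VIM1. The closest stretch held 6 differences.
VIM1 (chr1:21416534-21416613, minus strand): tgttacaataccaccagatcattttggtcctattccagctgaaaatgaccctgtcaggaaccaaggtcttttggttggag
VIM5 (chr1:21410510-21410589, minus strand): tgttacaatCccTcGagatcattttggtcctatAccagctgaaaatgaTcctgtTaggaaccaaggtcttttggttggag

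The most distant stretch held 24 differences, and the median over the 745 windows of this pair was 14.
VIM1 (chr1:21417611-21417690, minus strand): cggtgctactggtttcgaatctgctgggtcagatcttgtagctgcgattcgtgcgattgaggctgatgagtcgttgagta
VIM5 (chr1:21411992-21412071, minus strand): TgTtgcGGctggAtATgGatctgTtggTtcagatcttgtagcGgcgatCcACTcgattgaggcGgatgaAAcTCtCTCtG

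Every window of 80 bases in the longest transcript of each member was searched for in those of all other loci. VIM5 shared 0% of its windows with any locus, and VIM1 also shared 0%. VIM2 shared 61.7% and VIM4 shared 67.6%, almost all with each other. VIM3 shared 4.91%, with VIM2 and VIM4, and ORL1 shared 1.96%, with the overlapping AT4G08580. The window of 80 bases is the read length given in the methods, and the labels give 100 bases. With windows of 27 bases the share was 3.25% for VIM5, 2.87% for VIM1, 36.4% for VIM3, 80.1% for VIM2 and 88.4% for VIM4. These shares do not bound the share of reads, and how a read that fits several loci was counted is not given in the sources used here, so the separate values of VIM2 and VIM4 are uncertain.

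**Figure D1:**
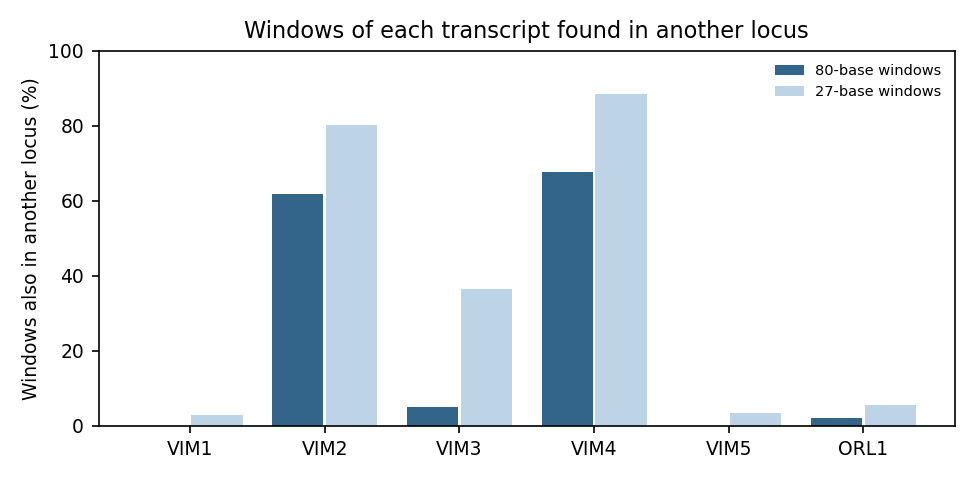
Bars give the share of windows (%) in the longest transcript of each VIM member that also occur in the longest transcript of another locus, for windows of 80 and of 27 bases. VIM2 and VIM4 stand at 61.7% and 67.6% for 80 bases, whereas VIM1 and VIM5 are at 0%.

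Depth ran from 3538335 to 6498145 counted reads per library. The second replicate of C24 X Col-0 stood apart, with reads on 29250 loci against 19828 to 20580 in the other 3 libraries. In the methods, replicate 2 of both crosses was treated with a duplex-specific nuclease, which removes abundant sequences, so the replicate number is also a treatment. Whole seed was checked by marker lists. All 6 endosperm markers (FIS2, AGL62, IKU2, MINI3, PHE1 and FWA) were detected, at summed levels of 44.1 and 85.8 CPM (reads per 1000000) in the replicates of Col-0 X C24, against 82.1 and 124 for the reciprocal cross, with IKU2 at 0 reads in Col-0 X C24 replicate 1. The 3 embryo markers summed to 2.92, 27.6, 3.80 and 18.7 in the same order, the 4 seed coat markers to 3344, 1991, 6337 and 2399, and the 2 markers of fruit wall and leaf to 489, 288, 975 and 837. Almost all of that last sum was RBCS1A, and the other marker, FUL, had only 7, 4, 1 and 18 reads. The 2 pollen markers were at 0.307, 0, 0 and 1.95.

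Levels are given as CPM, with the library sizes scaled by TMM, where a gene is compared between libraries, and as CPM per kilobase of transcript (RPKM) where genes are compared with each other. The TMM factors ran from 0.692 to 1.26, and counts per 1000000 of all counted reads, without TMM, were added as an alternative after the data were seen. That scaling moved the median log2 fold change of all tested loci from -0.01 to 0.29. Values are listed in the order Col-0 X C24 replicate 1, Col-0 X C24 replicate 2, C24 X Col-0 replicate 1, C24 X Col-0 replicate 2.

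VIM5 had 26, 39, 60 and 97 raw reads, which is 3.99, 8.76, 14.2 and 15.7 CPM. Both libraries of C24 X Col-0 were above both of Col-0 X C24. The mean level was 6.38 ± 3.37 CPM (SD, n = 2) in Col-0 X C24 against 15.0 ± 1.07 (SD, n = 2) for its reciprocal. The counted level was thus 2.35-fold higher with C24 as seed parent and Col-0 as pollen donor. Loss of C24 reads of VIM5 in alignment was not tested. The log2 fold change, throughout Col-0 X C24 relative to C24 X Col-0, was -1.25 (standard error 0.53), with an unadjusted p of 0.0578 and an adjusted p of 0.698 in edgeR's quasi-likelihood test with Benjamini-Hochberg adjustment over the 16779 loci. The difference exceeded the SD of either cross but did not pass the test. The separation of the crosses did not hold without TMM: per 1000000 of all counted reads VIM5 was at 4.00, 11.02, 9.83 and 17.6, so that the crosses overlapped, and the fold was 1.82. With the replicate number as a block, which sets the crosses against each other within each replicate number, the log2 fold change was -1.32 (standard error 0.43), with an unadjusted p of 0.00973 and an adjusted p of 0.0979 in the same edgeR test. The size of the difference depended on a single library: it was -0.77 with Col-0 X C24 replicate 1 left out and -1.91 with Col-0 X C24 replicate 2 left out. With C24 X Col-0 replicate 2 left out, the library that stood apart, it was -1.18. Each fit with a library left out also leaves the nuclease treatment unequal between the crosses. The summed endosperm markers were lowest in the library in which VIM5 was lowest and highest in that in which it was highest. Between the other libraries the order was reversed. The markers were at 85.8 CPM in Col-0 X C24 replicate 2 and 82.1 in C24 X Col-0 replicate 1. FWA was the largest part of each sum. FIS2, IKU2, PHE1 and FWA were each lowest where VIM5 was, whereas AGL62 and MINI3 were lowest in Col-0 X C24 replicate 2. The part of the markers in the difference was not tested.

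ORL1 had the opposite order. Its raw counts were 93, 65, 38 and 60, or 14.3, 14.6, 9.01 and 9.74 CPM, and both libraries of Col-0 X C24 were above both of C24 X Col-0. The mean was 14.4 ± 0.221 CPM (SD, n = 2) in Col-0 X C24 against 9.38 ± 0.513 (SD, n = 2) for its reciprocal, a 1.54-fold higher level in Col-0 X C24. With TMM the replicates differed by far less than the crosses, but the log2 fold change of 0.62 (standard error 0.39) did not pass edgeR's test (adjusted p = 0.820, and 0.412 with the replicate block). Per 1000000 of all counted reads ORL1 was at 14.3, 18.4, 6.23 and 10.9, and the crosses again did not overlap. Its overlapping neighbour AT4G08580 had 143, 133, 36 and 253 reads. That gene was lowest in the library in which ORL1 was lowest, but it was highest in the second replicate of C24 X Col-0, in which ORL1 was not. Whether counting used strand is not given in the sources used here, so reads of the 114 shared bases may belong to either gene.

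VIM3, one of the redundant maintenance genes, had its higher values in C24 X Col-0, as VIM5 did. It had 55, 33, 49 and 76 reads, or 8.45, 7.41, 11.6 and 12.3 CPM, and the crosses did not overlap. The mean was 7.93 ± 0.733 CPM (SD, n = 2) in Col-0 X C24 against 11.98 ± 0.505 (SD, n = 2) for its reciprocal, 1.51-fold higher. Its log2 fold change of -0.59 (standard error 0.42) did not pass edgeR's test (adjusted p = 0.843, and 0.477 with the block). Per 1000000 of all counted reads VIM3 was at 8.46, 9.33, 8.03 and 13.8, and the crosses overlapped.

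VIM1, the founding member of the family, had the highest mean level and, with TMM, the same mean in both crosses. Its raw counts of 128, 86, 94 and 103 gave 19.7, 19.3, 22.3 and 16.7 CPM, and the libraries of Col-0 X C24 fell between those of C24 X Col-0. The mean was 19.5 ± 0.245 CPM (SD, n = 2) and 19.5 ± 3.94 (SD, n = 2), and the log2 fold change was 0.00 (standard error 0.36, with edgeR's adjusted p at 0.999). Per 1000000 of all counted reads VIM1 was at 19.7, 24.3, 15.4 and 18.7, so that on this scale both libraries of Col-0 X C24 were above.

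VIM2 and VIM4, the near-identical pair, had the fewest reads. VIM2 had 9, 18, 12 and 31 reads, or 1.38, 4.04, 2.85 and 5.03 CPM, and VIM4 had 12, 3, 2 and 12, or 1.84, 0.674, 0.474 and 1.95 CPM. The crosses overlapped for both genes. VIM2 averaged 2.71 ± 1.88 CPM (SD, n = 2) in Col-0 X C24 against 3.94 ± 1.55 (SD, n = 2) for its reciprocal, and VIM4 averaged 1.26 ± 0.827 and 1.21 ± 1.04 (SD, n = 2 each). The log2 fold change was -0.57 (standard error 0.86, with edgeR's adjusted p at 0.926) for VIM2 and 0.04 (standard error 1.20, adjusted p = 0.997) for VIM4. With the pair summed into a single locus, the level was 3.23, 4.72, 3.32 and 6.98 CPM and the log2 fold change was -0.39 (standard error 0.69, with edgeR's adjusted p at 0.936).

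**Figure D2:**
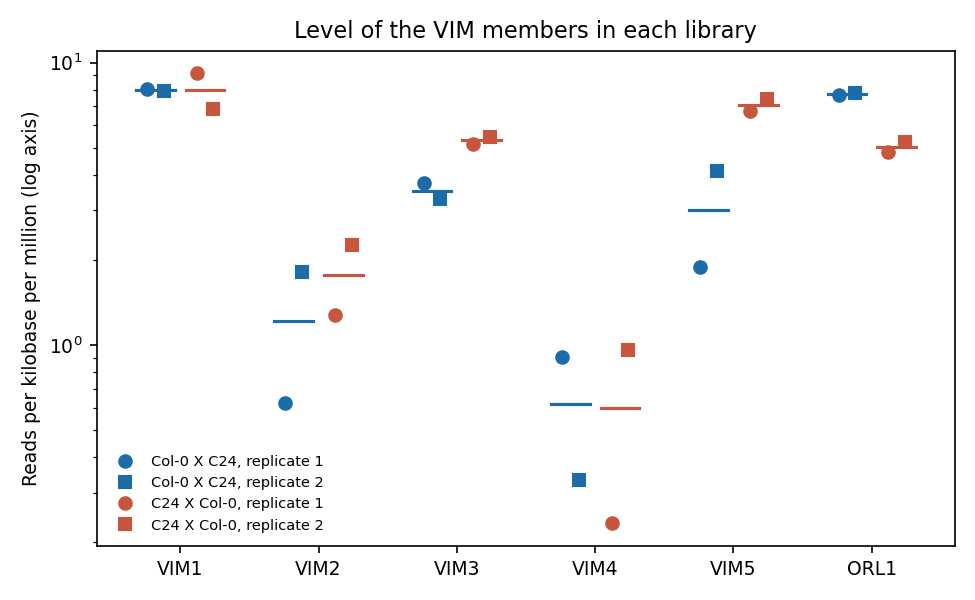
Points give the level of each VIM member (RPKM, log axis) in each of the 4 libraries, with circles for replicate 1, squares for replicate 2 and bars for the mean of each cross. With the TMM scaling drawn, the crosses do not overlap for VIM3, VIM5 and ORL1, of which ORL1 alone stays apart when scaled by total reads, and VIM4 ranges from 0.234 to 0.961 RPKM.

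The way VIM2 and VIM4 split their reads varied between libraries. VIM4 took 57.1% of the pair's reads for Col-0 X C24 replicate 1 (12 of 21 reads, 95% exact Clopper-Pearson interval 34.0% to 78.2%) and 14.3% in replicate 2 (3 of 21, 3.05% to 36.3%). In C24 X Col-0 it took 14.3% in replicate 1 (2 of 14, 1.78% to 42.8%) and 27.9% in replicate 2 (12 of 43, 15.3% to 43.7%). The 4 intervals overlap, and they reflect counting error alone, because reads copied from 1 molecule by PCR are counted more than once.

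**Figure D3:**
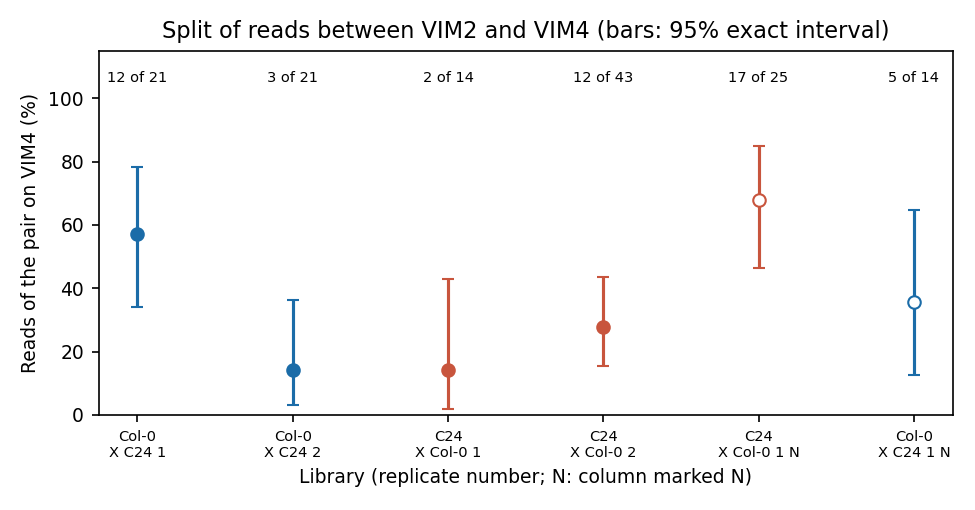
Points give the share of the reads of VIM2 and VIM4 that were counted on VIM4 (%), with 95% exact intervals, in the 4 libraries (filled) and in 2 further count columns of replicate 1 marked N (open). The share lies between 14.3% and 57.1% in the 4 libraries, and the counts behind each point are printed above it.

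Of the 6 members, 0 passed an adjusted p of 0.05 by edgeR and 0 an unadjusted p under 0.05, beside 0% and 7.46% of all tested loci. With the replicate block 0 of 6 passed, beside 6.66% of all tested loci, of which 2.24% were higher and 4.42% lower in Col-0 X C24, and VIM5 was the 1 member with an unadjusted p under 0.05, beside 20.0% of loci. DESeq2 also called 0 members, beside 302 of all tested loci. Both libraries of Col-0 X C24 were below both of C24 X Col-0 for 2 members, VIM3 and VIM5, beside 17.2% of all tested loci. They were above for 1 member, ORL1, beside 19.6% of loci, and the other 3 overlapped. Per 1000000 of all counted reads the counts were 0 members below, beside 1680 of the 16779 tested loci, and 2 above, VIM1 and ORL1, beside 4355 loci. The median log2 fold change of the members was -0.28, and that of all tested loci was -0.01.

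**Figure D4:**
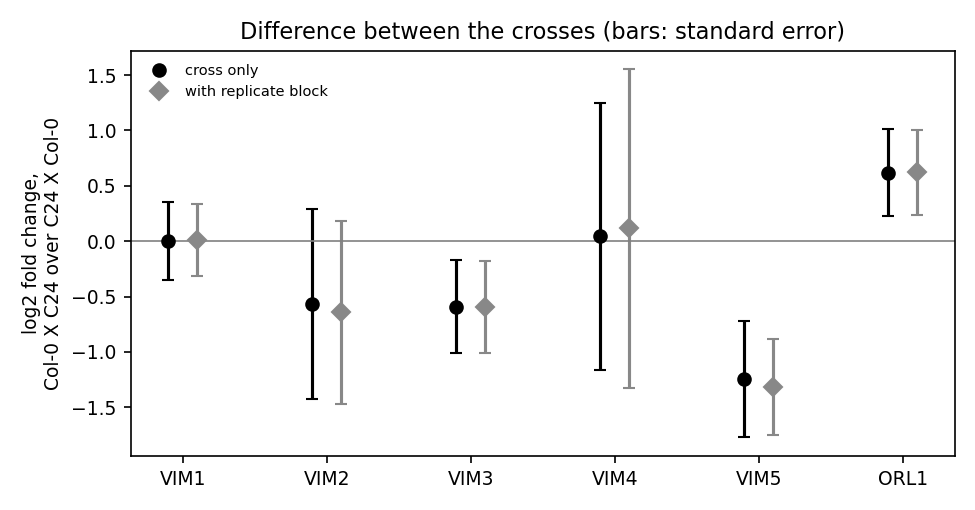
Points give the log2 fold change (Col-0 X C24 relative to C24 X Col-0) for each VIM member, with bars of 1 standard error, in the edgeR fit on cross alone (black) and with the replicate block (grey). VIM5 is farthest from 0, at -1.25 and -1.32, and ORL1 stands on the other side, at 0.62 in both fits.

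With TMM, the replicates of a cross differed unequally over the family. For ORL1, the log2 ratio of replicate 2 over replicate 1 was 0.03 in Col-0 X C24 against 0.10 for the reciprocal cross. VIM3 changed by -0.18 and 0.08 on this scale, and VIM1 by -0.02 and -0.42. VIM5 was higher in replicate 2 of Col-0 X C24, at 1.12, and little different in C24 X Col-0, at 0.14. VIM2 was higher in replicate 2 of both crosses, at 1.51 and 0.79, and VIM4 moved in opposite directions, at -1.29 and 1.77.

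Levels per length gave the order of the members within each cross. For Col-0 X C24 the mean levels were 8.01 RPKM for VIM1, 7.74 for ORL1, 3.51 for VIM3, 3.01 for VIM5, 1.22 for VIM2 and 0.620 for VIM4. VIM3 and VIM5 were not ordered the same way in both replicates, nor were VIM2 and VIM4, and the other neighbours were. For C24 X Col-0 they were 8.02 RPKM for VIM1, 7.07 for VIM5, 5.30 for VIM3, 5.03 for ORL1, 1.77 for VIM2 and 0.597 for VIM4. There VIM1 and VIM5 were not ordered the same way in both replicates. VIM3 was above ORL1 within each replicate, but replicate 1 of VIM3, at 5.15 RPKM, was below replicate 2 of ORL1, at 5.22, so this pair did not differ beyond its spread. In order of level, VIM5 had rank 4 and rank 3 in the replicates of Col-0 X C24, against rank 2 and rank 1 for the reciprocal cross.

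The share of VIM5 in the summed level of the family (RPKM) was 8.23% and 16.3% in the replicates of Col-0 X C24, against 24.5% and 26.3% for the reciprocal cross. The mean was 12.3% ± 5.72 (SD, n = 2) against 25.4% ± 1.28 (SD, n = 2), and the crosses did not overlap. As a share of the family's raw reads it was 8.05% (95% Wilson interval 5.55% to 11.5%), 16.0% (11.9% to 21.1%), 23.5% (18.7% to 29.1%) and 25.6% (21.5% to 30.2%). The intervals of Col-0 X C24 replicate 2 and C24 X Col-0 replicate 1 overlap.

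The summed level of the whole family was 49.6, 54.8, 60.5 and 61.5 CPM, with means of 52.2 ± 3.67 (SD, n = 2) in Col-0 X C24 against 61.0 ± 0.730 (SD, n = 2) for its reciprocal. Without VIM5, the other 5 members summed to 45.6, 46.0, 46.3 and 45.8 CPM. On this scale the other members added up to nearly equal levels, with ORL1 lower and VIM3 higher in C24 X Col-0. Without TMM they did not: per 1000000 of all counted reads the other 5 summed to 45.7, 57.9, 32.0 and 51.1, and the whole family to 49.7, 69.0, 41.8 and 68.6, with overlapping crosses. With TMM, the 4 sums of the other 5 stood closer together than their counting error, with exact Poisson intervals of 40.6 to 51.1, 39.9 to 52.8, 40.0 to 53.2 and 40.6 to 51.4 CPM.

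VIM5 was also set against each paralog within a library, a ratio that does not depend on the scaling of the library. The log2 ratio of VIM5 to VIM1 per kilobase was -2.08, -0.93, -0.44 and 0.11, with 0.5 reads added to each count. It was lower in each Col-0 X C24 library, with a difference of -1.34 in the mean, and VIM5 was above VIM1 only in replicate 2 of C24 X Col-0. Against ORL1 the log2 ratio was -2.002, -0.91, 0.47 and 0.51, so that VIM5 was below ORL1 in each Col-0 X C24 library and above it in each C24 X Col-0 library. Of the ratios whose crosses did not overlap, this one had the largest difference, at -1.94. In the further count column of C24 X Col-0 replicate 1 marked N, VIM5 was below ORL1 as well. At -0.43, this log2 ratio stayed above those of both Col-0 X C24 libraries. Against VIM3 it was -0.97, 0.33, 0.38 and 0.44, a gap that rested on Col-0 X C24 replicate 1, since the difference of -0.73 was -0.08 without that library. Against VIM2 it was 1.55, 1.17, 2.35 and 1.70, with a difference of -0.67. Against VIM4 it was 1.02, 3.43, 4.53 and 2.90, with a difference of -1.49 and overlapping crosses.

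Over the libraries compared, the crosses were thus separated for 4 of the 5 ratios, all with VIM5 relatively lower in Col-0 X C24. The exact two-sided permutation p was 0.333 for these 4, the smallest that 2 libraries against 2 allow, and 0.667 for the ratio to VIM4. Adjusted over the 5 ratios by Benjamini-Hochberg, these p-values were 0.417 and 0.667. The 5 ratios share the counts of VIM5 and are not independent of each other. The columns marked N did not keep every separation. In that of C24 X Col-0 the ratio to VIM3 was -0.24, below Col-0 X C24 replicate 2. In that of Col-0 X C24 the ratio to VIM2 was 1.89, above C24 X Col-0 replicate 2. The ratio to VIM4 was reversed between the marked columns, at 2.54 in Col-0 X C24 against 1.55. The ratios to VIM1, at -1.94 against -0.79, and to ORL1 kept their order.

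**Figure D5:**
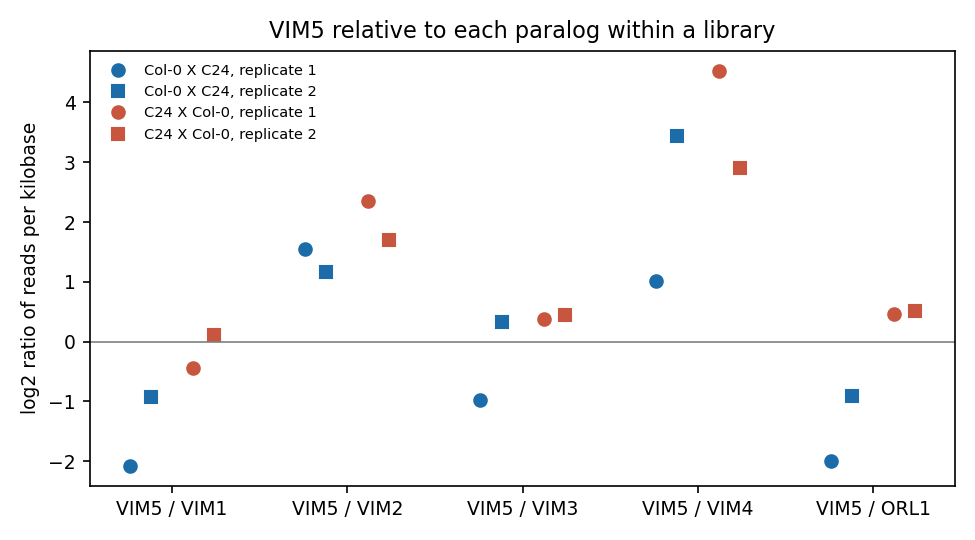
Points give the log2 ratio of VIM5 to each paralog, in reads per kilobase, within each of the 4 libraries, with circles for replicate 1 and squares for replicate 2. For ORL1 the points lie at -2.002 and -0.91 for Col-0 X C24, and the reciprocal cross has 0.47 and 0.51, on either side of the line of equal levels.

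Apart from AT4G08580, and AT5G39560 beside VIM3, the counted loci beside the members carried few reads. The lncRNA AT1G08177, 1145 bases from VIM5 on the side away from VIM1, was not among the counted loci. The pseudogene AT1G57810, between VIM5 and VIM1, had 0, 0, 0 and 3 reads, and AT1G66045, between VIM4 and VIM2, had 0 in all 4. AT1G57830, on the other side of VIM1, had 0, 0, 3 and 1. AT1G66060, past VIM2, had reads only in the second replicate of C24 X Col-0, at 10, as did AT1G66030, past VIM4, at 6, and AT4G08593, past ORL1, at 19. AT5G39540, on one side of VIM3, had 0 reads in all libraries. AT5G39560, on the other side, had 2, 16, 2 and 79, the last above the 76 reads of VIM3 in that library. Apart from AT4G08580, reads on neighbours were thus mostly in the library that stood apart.

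A list of 9 genes was chosen as partners of CG methylation maintenance, including general genes of replication and chromatin assembly. That each acts with the VIM proteins was not tested. Of the 9, 9 were tested between the crosses and 0 passed in either direction, with and without the replicate block, beside 6.66% and 0% of all tested loci. In both fits 0 had an unadjusted p under 0.05, beside 20.0% of loci with the block and 7.46% without. Of the 9, 6 had a higher and 3 a lower value in Col-0 X C24, beside 8215 and 8564 of all tested loci. The median log2 fold change was 0.27, against -0.01 for all tested loci. MET1, the methyltransferase itself, was at 41.6, 27.6, 39.4 and 30.5 CPM, and its log2 fold change was -0.01 (standard error 0.37, with edgeR's adjusted p at 0.997). DDM1, the chromatin remodeller needed for methylation of transposons, had a log2 fold change of -0.11. The sliding clamp genes PCNA1 and PCNA2 had 0.39 and 0.27, and LIG1, a DNA ligase, had 0.47. The chromatin assembly subunits FAS1, FAS2 and MSI1 had 0.20, 0.34 and 0.45, and HDA6, a histone deacetylase, had -0.68. In level per length MET1 stood at 6.84 RPKM in Col-0 X C24 against 6.90 for its reciprocal, near the level of VIM1.

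Among 12 other DNA methyltransferases and demethylases, 9 were tested and 0 passed, beside 0% of all tested loci, with 2 at an unadjusted p under 0.05, beside 7.46%, and a median log2 fold change of 0.02. The 4 most abundant were the demethylase ROS1, at 0.38, the methyltransferase CMT3, at 0.02, the demethylase DML2, at 0.44, and the demethylase DME, at -0.00, in log2 fold change. With the replicate block 1 passed, beside 6.66% of loci: AT4G08990, known as MET2B, a relative of MET1. MET2B had 8, 11, 18 and 126 reads, and its log2 fold change with the block was -2.49 (adjusted p = 0.0213 in edgeR's test). This call was lost with the block in DESeq2 (adjusted p = 0.0636) and with the block and library totals in edgeR (adjusted p = 0.195). Its highest count was in the library that stood apart, and without that library and without the block the log2 fold change was -1.23, against -2.76 with all 4.

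The SUVH proteins share the SRA domain with the VIM family but carry a histone methyltransferase domain. Of 10 genes, 9 were tested and 0 passed, beside 0% of all tested loci, with 1 at an unadjusted p under 0.05, beside 7.46%. Of the 9, 3 were higher and 6 lower in Col-0 X C24, beside 8215 and 8564 of all tested loci. Their median log2 fold change was -0.36. The 4 most abundant, SUVH9, SUVH4, SUVH1 and SUVH3, had log2 fold changes of -0.15, 0.23, 0.66 and 0.45. With the replicate block 1 passed, beside 6.66% of loci: SUVH8, which had 18, 17, 41 and 112 reads and a log2 fold change of -2.03 (adjusted p = 0.0203 in edgeR's test). This call too was lost with the block in DESeq2 (adjusted p = 0.0851) and with the block and library totals in edgeR (adjusted p = 0.204). Its log2 fold change was -1.57 without the library that stood apart and -2.09 with all 4, both without the block. Of 11 replication genes, 11 were tested and 0 passed, with or without the block, beside 6.66% and 0% of loci. An unadjusted p under 0.05 was found for 4 with the block, beside 20.0% of loci, and for 1 without, beside 7.46%. Of the 11 genes, 10 had a higher value in Col-0 X C24 and 1 a lower, beside 8215 and 8564 of all tested loci, with a median log2 fold change of 0.54. TSO2 and RNR1, subunits of ribonucleotide reductase, had 0.01 and 0.64, and the helicase subunits MCM7 and MCM5 had 0.89 and 0.49.

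The tested genes whose profile over the 4 libraries was most like that of VIM5 were ranked by the root mean square difference of centred log2 CPM. The nearest was AT3G01329, annotated as an ECA1-like gametogenesis gene, at a difference of 0.0524 and 15.4, 31.4, 47.2 and 54.9 CPM. Next were AT4G30910, of the cytosol aminopeptidase family, at 0.0610, and AT3G50710, an F-box protein, at 0.0721. The DNA methyltransferase gene CMT1 (AT1G80740) followed at 0.0787, with 5, 9, 13 and 25 reads, and AT1G10190, a gene of unknown function, at 0.0829. Among 16779 tested loci these are the nearest of many profiles over only 4 libraries. The members themselves were farther from VIM5: VIM2 had rank 475 (difference 0.42), VIM3 rank 1376 (0.564), VIM1 rank 5405 (0.777), ORL1 rank 11486 (1.01) and VIM4 rank 13342 (1.13).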

How the data were processed

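The authors trimmed the reads, aligned them with BWA 0.5.8c to TAIR10 cDNA and deposited raw counts per locus, with no normalization and with SAMtools 0.1.7 among the tools in the submitters' processing notes. Of 6 count columns, 4 matched the 4 mRNA-seq libraries, and 2 marked N, beside a replicate 1, were kept out of the comparisons. The 5 amplicon libraries and the hybrid crosses were not analysed here. Loci with at least 10 counts in at least 2 libraries were tested with edgeR 4.0.16 (R 4.3.3), using TMM, robust quasi-likelihood and Benjamini-Hochberg adjustment with a threshold of 0.05, and with DESeq2 1.42.0 and library totals as alternatives. The standard error of a log2 fold change is its size over the root of F. RPKM used the longest TAIR10.1 transcript, and 97.7% of loci were in that annotation. Totals were 3538335 to 6498145 reads. Permutation tests used scipy 1.17.1. The fits were also run on simulated counts, at a dispersion near that of the fit with the block and with changes larger than those of the members. That run does not show whether changes as small as those of the members would be called. Members, lists and the rules for named genes (all members and maintenance partners, at most 4 genes of each other list, neighbours, and the 5 profiles nearest to VIM5) were chosen with earlier results of these data known, and MET2B and SUVH8 were named after their values were seen. The p-values measure only the spread between these samples. Without the replicate block, that spread also holds the nuclease treatment of replicate 2, as does each SD within a cross.

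The replicate number pairs the libraries because in the methods replicate 2 of each cross received the nuclease. The change from replicate 1 to 2 correlated between the crosses at r = 0.553 over 16779 loci, which are not independent, and the common dispersion was 0.209 without the block and 0.0733 with it.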

Additional observations from a re-analysis of the deposited data

Results flagged for a closer look

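Signal was found in data the comparisons do not use, since the 2 count columns marked N held reads of every member, all above the 3 counts that a count of 0 allows. The column of C24 X Col-0, with 3395442 reads, had 106 on VIM1, 8 on VIM2, 67 on VIM3, 17 on VIM4, 53 on VIM5 and 63 on ORL1. That of Col-0 X C24, with 3876803 reads, had 147 on VIM1, 9 on VIM2, 75 on VIM3, 5 on VIM4, 33 on VIM5 and 116 on ORL1. VIM5 was at 15.6 reads per 1000000 in the former and 8.51 in the latter, where the unmarked columns of the same replicates gave 9.83 and 4.00. VIM5 made up 17.4% and 8.76% of the family's level per length in them. VIM4 took 68.0% of the pair's reads in the former (17 of 25, 95% exact interval 46.5% to 85.1%) and 35.7% in the latter (5 of 14, 12.8% to 64.9%). In the unmarked column of C24 X Col-0 replicate 1 VIM4 took 14.3% (1.78% to 42.8%), an interval that does not overlap that of the marked column. The log2 ratio of VIM5 to ORL1 was -0.43 in the marked column of C24 X Col-0, against 0.47 in the unmarked one, and -1.98 in that of Col-0 X C24. The meaning of the mark is not given in the sources used here.

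For 2 members the replicates moved in opposite directions in the 2 crosses. Between Col-0 X C24 and its reciprocal, the log2 ratio of replicate 2 over replicate 1 differed by -3.06 for VIM4 and by -0.26 for VIM3. Per 1000000 of all counted reads, replicate 2 of VIM3 was above replicate 1 in both crosses, at 9.33 against 8.46 and 13.8 against 8.03. With 1 library per cross and replicate number, the difference was not tested.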

How the results depend on the processing

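In every setting tried 0 of 6 members were called. The adjusted p of VIM5 ranged from 0.0979, with the replicate block, to 1.00 over 14 alternatives in edgeR and DESeq2. Counts over all loci moved far more. From 0 loci, the count rose to 1118 with the replicate block, 302 with DESeq2, 585 with no filter on low counts and 819 with the replicate block in DESeq2, a setting chosen after seeing the data, as were library totals in place of TMM, with 4 loci, and the replicate block with library totals, with 194. Leaving out 1 library gave 0 to 46, the latter without replicate 2 of Col-0 X C24. Genes of the pathway lists went from 0 to 2 with the replicate block and to 1 with no filter, but stayed at 0 with the replicate block in DESeq2 or with library totals. No member's call was changed by the block.

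The sign held for VIM3, VIM5, ORL1 and all 5 ratios of VIM5 in every setting tried, but not their size. No setting used the columns marked N, between which the ratio to VIM4 had the opposite order. With library totals the log2 fold change was -0.90 for VIM5, -0.31 for VIM3 and 0.92 for ORL1, where the median of all tested loci was 0.29. With a library left out, the difference in ratio ranged from -1.91 to -0.77 against VIM1, -0.99 to -0.34 against VIM2, -1.39 to -0.08 against VIM3, -2.70 to -0.28 against VIM4 and -2.49 to -1.40 against ORL1. The log2 fold change then ranged from -1.91 to -0.77 for VIM5, -0.69 to -0.51 for VIM3, 0.57 to 0.67 for ORL1, -0.20 to 0.22 for VIM1, -1.51 to 0.034 for VIM2 and -0.59 to 0.54 for VIM4. VIM1 also changed sign with DESeq2's size factors (-0.042), with DESeq2 (-0.042), at a minimum of 30 counts (-0.016) and with the replicate block in DESeq2 (-0.026). The cause was not tested. VIM5 made up 22.0% of the family's level in C24 X Col-0 with lengths counted as unique windows, and 27.9% with VIM2 and VIM4 left out of the sum. At 30 counts VIM2 and VIM4 were not tested. VIM4 also missed the minimum of 10 reads in at least 2 libraries in 2 of the fits with a library left out. The block with a library left out has no residual degrees of freedom. The 2 to 31 reads behind VIM2 and VIM4 limit what their values can show.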
